A study of Mus musculus with 7 samples.

Results

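The TRIM genes, a family of ubiquitin ligases, were followed through the response of mouse spleen monocytes to an antiphospholipid antibody and to 3 agonists of nucleic acid-sensing Toll-like receptors. A member was any gene with a symbol made of Trim, a number and at most 1 letter, on a probe set listed with that symbol alone, 1 such gene not being reported here. No level was required, and where a gene had several probe sets the brightest on average was used, which gave 62 Trim genes of 22180 genes on the arrays. RNA was measured on 7 Mouse Gene 2.0 ST arrays, each from 1 mouse under 1 condition, and the deposited values are log2 expression levels. Spleen monocytes that were wild-type for EPCR (endothelial protein C receptor) were stimulated for 3 h in every treated group. Mouse 1 and mouse 2 each gave an unstimulated array and an HL7G array. HL7G is a monoclonal antiphospholipid antibody and was given at 400 ng/ml. Mouse 1 alone gave 1 array each for R848 at 2 µg/ml (a TLR7 agonist in the mouse), CpG B at 2.5 µM (a TLR9 agonist) and poly I:C at 1 µg/ml (which mimics double-stranded RNA and is sensed by TLR3). An IgG treatment in the protocol was not analysed here, and the labels do not say how the monocytes were selected.

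TRIM proteins share an N-terminal RING finger, B-boxes and a coiled coil, and differ in the C-terminal domain that picks their targets. The RING finger passes ubiquitin from an E2 enzyme to a substrate, and coiled coils let TRIM proteins form dimers and larger assemblies. Many members act in innate immunity: in myeloid cells they are known to promote or restrain the RIG-I, STING, Toll-like receptor and NF-kB pathways, to restrict retroviruses, or, for Trim21, to bind antibody in the cytosol. Several are transcribed in response to interferon through the interferon-stimulated response element, a DNA site bound by STAT and IRF factors.

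The core of that element, GAAA and GAAA set 2 bases apart on either strand (TTTC and TTTC when read from the other), was looked for in RefSeq promoter windows of 300 bases that run from 250 before to 50 after an annotated start. The stretches are shown so that neighbouring Trim genes with near-identical promoters can be set beside their array values. A window was found for 48 of the 62 Trim genes, and for each of the 10 that rose. The core stood in 6 of those 10 (60%), in 2 of the 38 uncalled Trim genes with a window (5.26%, Trim12c and Trim2) and in 3.99% of 27025 genes. Over all genes that rose with HL7G, 94 of the 1461 with a window held it (6.43%). Of the 6 Trim genes, Trim30a, Trim30d, Trim12a and Trim34a are neighbours on chromosome 7 and not independent cases. Whether the core bears on the array values was not tested. The stretches below are 5′ to 3′ in the direction of the gene with the core in capitals, and positions count from 1 at the first printed base.
Trim30a: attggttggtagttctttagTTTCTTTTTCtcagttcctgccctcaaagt
Trim30d: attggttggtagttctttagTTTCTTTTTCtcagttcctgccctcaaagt
Trim30c: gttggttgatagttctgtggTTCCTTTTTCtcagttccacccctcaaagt
Trim12a: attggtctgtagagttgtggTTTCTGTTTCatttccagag
Trim12c: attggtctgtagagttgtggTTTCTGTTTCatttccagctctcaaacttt
Trim34a: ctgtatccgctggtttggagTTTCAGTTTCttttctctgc
Trim21: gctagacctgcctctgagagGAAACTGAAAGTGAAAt
Trim26: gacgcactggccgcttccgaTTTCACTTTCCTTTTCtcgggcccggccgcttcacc

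These stretches lie on GRCm38.p6 at chr7:104465200-104465249 (Trim30a, minus strand), chr7:104507861-104507910 (Trim30d, minus), chr7:104400886-104400935 (Trim30c, minus), chr7:104315466-104315505 (Trim12a, minus), chr7:104353349-104353398 (Trim12c, minus), chr7:104244447-104244486 (Trim34a, plus), chr7:102565453-102565489 (Trim21, minus) and chr17:36836966-36837021 (Trim26, plus). The core begins 36 bases before the first annotated start of Trim30a, 41 before in Trim30d and 160 before in Trim26. It begins 10 bases past the start in Trim12a and Trim34a and 13 past it in Trim21, and the Trim21 and Trim26 stretches each hold 2 overlapping matches. The Trim30a and Trim30d stretches are identical at 50 of 50 bases. The closest stretch of Trim30c is the same at 43 of 50, and T23C, the only difference of these inside the core, leaves it without a match. Trim12c keeps the core of Trim12a and is identical to it at 38 of 40 bases. The letters were not found in the windows of Trim28, Trim37, Trim44 and Trim56, which also rose.

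The motif search also took in 2 other sites on both strands. The interferon-gamma-activated site TTCNNNGAA was in 0 of the 10 promoters and in 9.55% of all genes, and a wide kappa-B core, GGG and CC set 5 bases apart, was in 60% of the 10, 53.5% of all genes and 71.5% of all genes that rose with HL7G. No match of the first motif overlapped a match of another in the Trim windows. All of these are matches of letters, with no measurement of binding.

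The unstimulated arrays stood apart from the others, above all that of mouse 1. Actb read 5.02 (mouse 1) and 6.81 (mouse 2) without stimulus and 7.77 to 9.34 on the stimulated arrays, B2m read 5.74 and 7.90 against 9.23 to 10.3, and Ptprc, the leukocyte phosphatase CD45, read 4.06 and 5.44 against 6.86 to 8.30. Gapdh was higher without stimulus (9.13 and 8.75) than on the stimulated arrays (7.73 to 8.32). The classical monocyte markers Ly6c2 and Ccr2 stayed at 3.74 to 4.38 and 3.76 to 4.09. Of all 12 monocyte markers 7 reached 5 on at least 1 array, where 50.1% of all genes did. These levels do not settle whether the monocyte label holds. Markers of B cells rose with HL7G for 7 of 10 genes (70%), where 8.32% of all genes did. Their summed log2 level was 51.0 to 53.8 unstimulated, 64.0 to 64.3 with HL7G and 57.9 to 60.6 with the agonists. For T cells 4 of 8 markers rose (50%), with sums of 40.7 to 42.1, 49.4 to 50.04 and 43.8 to 45.1. Of the 12 monocyte markers 1 rose (8.33%), and of 8 neutrophil markers 1 rose (12.5%). No marker of NK cells (5 measured), erythroid cells (3 measured) or plasmacytoid dendritic cells (6 measured) was called. These shifts were read on the same arrays as the rises of the Trim genes below, and their part in the results was not tested. In bulk RNA, fewer cells of a type and less RNA per cell cannot be told apart.

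A minority of the family was 2.01- to 6.49-fold higher with HL7G, and Trim43c was lower. In limma, 10 of 62 Trim genes (16.1%) were higher at an adjusted p under 0.05, where 8.32% of all genes were, and 1 (1.61%) was lower, where 1.51% were. The genes that rose were Trim30d, Trim44, Trim56, Trim12a, Trim30a, Trim21, Trim26, Trim28, Trim37 and Trim34a. The other 51 were not called, and the median difference over all 62 was -0.17, beside -0.12 over all genes. The sign of this median depended on the setting: it was 0.18 over the 38 Trim genes reaching a level of 5 (0.06 over all such genes), 0.0020 after cyclic loess and -0.042 after quantile normalization. At an unadjusted p under 0.05 there were 14 higher (22.6%) and 5 lower (8.06%) Trim genes, beside 16.5% and 12.1% of all genes. Over all genes 84.6% of the calls were upward (1845 genes higher and 336 lower), and after quantile normalization of the deposited values 64.7% were, with 12 Trim genes higher and 2 lower (Trim43c and Trim71). The tests set 2 arrays against 2 with 2 residual degrees of freedom, so that p-values rest on the spread between 2 mice. Leaving out the unstimulated array of mouse 1 took these calls away, and the differences of the 10 genes were then 0.79 to 2.62.

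**Figure D1:**
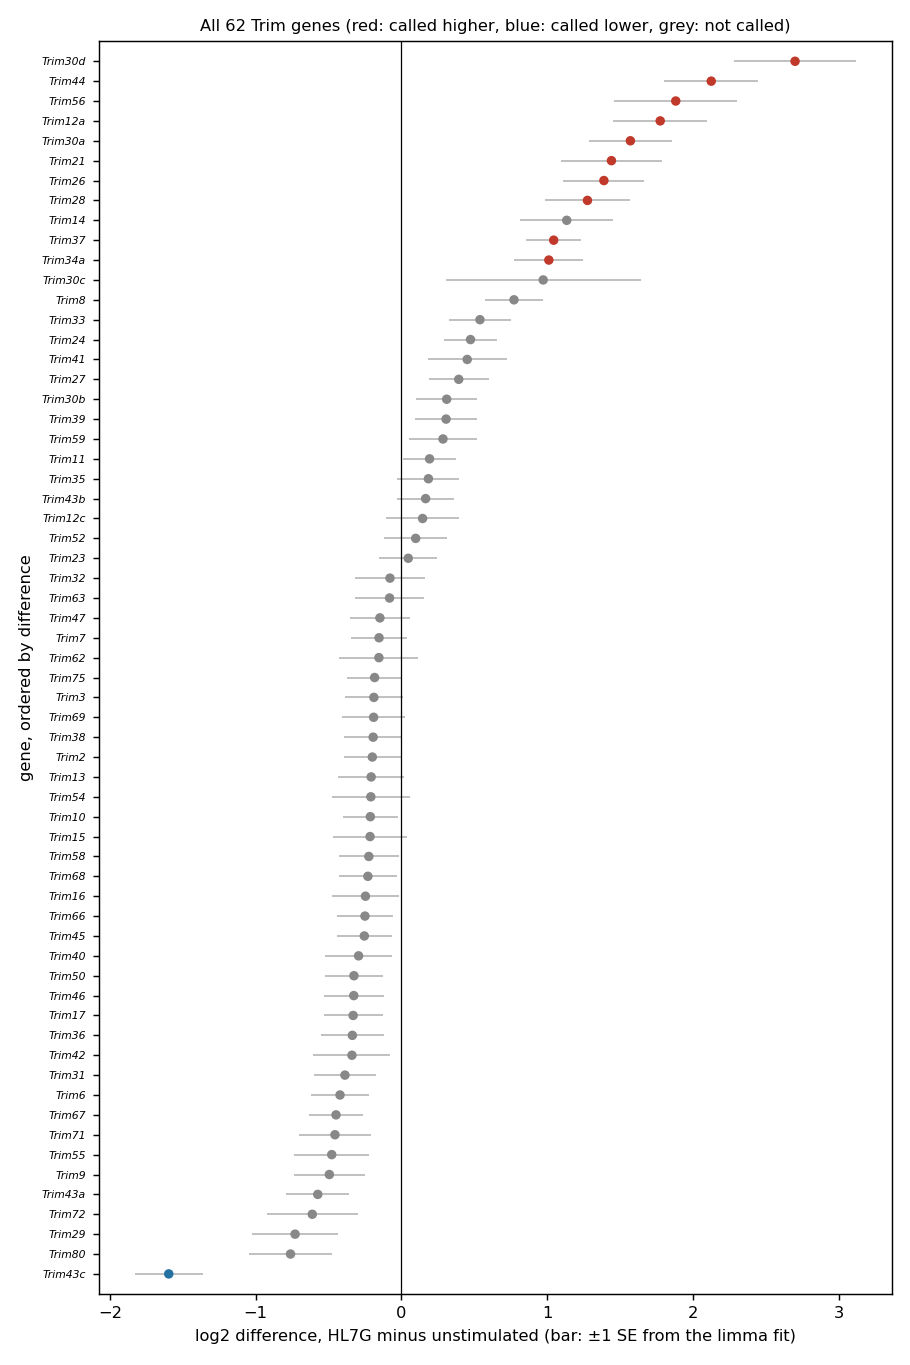
HL7G minus unstimulated on the log2 scale for each of the 62 Trim genes, ordered by size; points are the limma estimates, bars are standard errors, and red marks the 10 genes called higher, blue the 1 called lower and grey the rest. The values run from -1.60 for Trim43c to 2.70 for Trim30d, with 26 genes above 0 and 36 below.

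Most of the family was listed in the class with a C-terminal PRY-SPRY domain, the substrate-binding fold of most antiviral TRIM proteins. Whether each protein carries the domain was not checked. Of 33 measured genes in this class 6 rose (18.2%, beside 8.32% of all genes), with Trim43c as the 1 fall. Over all Trim genes, which include these 33, 16.1% rose. Of these 6 genes 4 belong to the rodent cluster on chromosome 7, where Trim6, Trim34a, Trim12a, Trim12c, Trim30b, Trim30c, Trim30a and Trim30d lie in this order. Of the 8 cluster genes 4 rose (50%, beside 8.32% of all genes) and none fell, with a median difference of 0.99. The cluster corresponds to the primate TRIM5 locus, whose products restrict retroviruses.

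Trim30d, a copy of Trim30a, had the largest difference of the family. Its level was 3.80 and 3.96 on the unstimulated arrays of mouse 1 and mouse 2, 7.30 and 5.85 with HL7G, 5.61 with R848, 5.14 with CpG B and 5.26 with poly I:C. All 5 stimulated arrays were above both unstimulated ones. It rose 6.49-fold with HL7G (log2 difference 2.70 ± 0.42 SE, n = 2 against 2, limma adjusted p = 0.0126).

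Trim30a, known for restraining Toll-like receptor signalling through degradation of the TAB2 and TAB3 adaptors, was at 3.53 and 3.51 unstimulated and at 5.51 and 4.67 with HL7G. It was at 4.64 with R848, 4.78 with CpG B and 4.48 with poly I:C. The groups did not overlap, and the HL7G array of mouse 2 lay among the agonist arrays. The rise was 2.97-fold (1.57 ± 0.28, limma adjusted p = 0.0183).

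The other Trim30 copies were not called. Trim30c read 6.40 on the HL7G array of mouse 1 and 3.93 to 4.58 on the other 6 arrays, a difference of 0.97 ± 0.67 that was not called (limma adjusted p = 0.360). Its HL7G minus unstimulated value was 2.11 in mouse 1 and -0.16 in mouse 2. Trim30b stayed between 3.93 and 4.53 (difference 0.31 ± 0.21, limma adjusted p = 0.352). Probe sequences were not used here, and whether a probe set of 1 copy also reads another was not tested.

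Trim12a, a rodent counterpart of primate TRIM5, was at 5.39 and 4.66 unstimulated, 7.16 and 6.45 with HL7G, 6.50 with R848, 6.63 with CpG B and 5.61 with poly I:C. The poly I:C array was the nearest to the unstimulated level of the same mouse. With HL7G the gene rose 3.42-fold (1.77 ± 0.32, limma adjusted p = 0.0183), by 1.76 in mouse 1 and 1.78 in mouse 2, the most even pair among the 10. Its neighbour Trim12c stayed between 3.22 and 3.88 (0.14 ± 0.25, limma adjusted p = 0.717). A probe set listed with both Trim12c and Trim5 was higher by 1.22, with all stimulated arrays above both unstimulated ones. It was also dim, at 3.02 and 3.31 unstimulated. Another probe set listed with both genes, at a mean of 5.08 unstimulated, differed by -0.46. Together these probe sets do not settle the response of Trim12c.

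Trim34a, another neighbour, was at 4.54 and 4.98 unstimulated, 5.95 and 5.59 with HL7G, and 5.55, 5.25 and 5.36 with R848, CpG B and poly I:C. It was the smallest rise of the 10, at 2.01-fold (1.01 ± 0.24, limma adjusted p = 0.0382). With the mouse as a block its adjusted p was 0.0593, and a second, dimmer probe set of the gene, between 3.13 and 3.65 on all arrays, differed by 0.20; with the mean of both probe sets the difference was 0.60 and was not called. Trim6, at the edge of the cluster, read 4.15 to 4.93 without a call.

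Trim21 and Trim26 are PRY-SPRY members outside the cluster. Trim21, the cytosolic receptor for antibody Fc regions, was at 5.04 and 4.96 unstimulated, 7.005 and 5.87 with HL7G, 6.51 with R848, 5.54 with CpG B and 5.95 with poly I:C. The levels without stimulus were alike in the 2 mice, and every stimulated array was higher. It rose 2.71-fold (1.44 ± 0.35, limma adjusted p = 0.0422). Without the HL7G array of mouse 1 the difference was 0.87 and the call was lost.

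Trim26, a ligase described in the control of IRF3 and interferon production, lies on chromosome 17. It was at 5.15 and 5.30 unstimulated, 7.01 and 6.21 with HL7G, 6.72 with R848, 5.99 with CpG B and 6.23 with poly I:C. R848 gave a level above the HL7G array of mouse 2 but below that of mouse 1. The rise was 2.62-fold (1.39 ± 0.28, limma adjusted p = 0.0238), and cyclic loess normalization moved it to 0.91 with an adjusted p of 0.0536.

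Trim56 belongs to a class with no named C-terminal domain and is described to act on STING and cGAS and against RNA viruses. Its level was 4.51 and 4.71 unstimulated, 7.22 and 5.76 with HL7G, and 6.23, 5.85 and 6.31 with R848, CpG B and poly I:C. The HL7G array of mouse 2 was below all 3 agonist arrays of mouse 1. It rose 3.68-fold (1.88 ± 0.42, limma adjusted p = 0.0336), and without the HL7G array of mouse 1 the difference was 1.15. Trim8 of the same class, a partner of SOCS1 that also acts on TAK1, was at 4.51 and 4.44 unstimulated, 5.39 and 5.10 with HL7G, and 4.85, 4.58 and 4.84 with R848, CpG B and poly I:C. Its HL7G arrays were the highest of the 7, but the difference of 0.77 ± 0.20 was not called (limma adjusted p = 0.0527).

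The nuclear TRIM proteins with a PHD finger and bromodomain are transcription cofactors that read chromatin. Of 4 measured genes 1 rose (25%, beside 8.32% of all genes), with a median difference of 0.51. Trim28, the corepressor of KRAB zinc finger proteins also called KAP1, was at 4.51 and 4.80 unstimulated, 6.35 and 5.52 with HL7G, 6.03 with R848, 5.62 with CpG B and 5.52 with poly I:C. It rose 2.42-fold (1.28 ± 0.29, limma adjusted p = 0.0353), and without the HL7G array of mouse 1 its difference was 0.86 and the call was lost.

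Of the other nuclear cofactors, Trim24 was at 4.60 and 4.66 unstimulated, 5.12 and 5.09 with HL7G, and 4.46, 4.46 and 4.79 with R848, CpG B and poly I:C. Only the HL7G arrays exceeded 5, with a difference of 0.47 ± 0.18 that was not called (limma adjusted p = 0.145). Trim33, which acts on SMAD signalling, was at 3.93 and 4.22 unstimulated, 4.76 and 4.47 with HL7G, and 4.65, 4.48 and 4.07 with the agonists in the same order (0.54 ± 0.21, limma adjusted p = 0.149).

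Trim37, the member with a MATH domain, is known for roles in peroxisomes and centrioles. It was at 4.18 and 4.33 unstimulated, 5.30 and 5.30 with HL7G, 5.40 with R848, 5.38 with CpG B and 4.64 with poly I:C. This was the only 1 of the 10 whose highest array was not HL7G of mouse 1, and its poly I:C array stayed near the unstimulated level. The rise with HL7G was 2.06-fold (1.04 ± 0.19, limma adjusted p = 0.0181).

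Trim44 lacks a RING finger, carries a zinc finger of the ubiquitin protease type and is described to stabilise MAVS. Its level was 3.99 and 4.67 unstimulated, 6.83 and 6.07 with HL7G, 6.40 with R848, 6.18 with CpG B and 5.68 with poly I:C. Every stimulated array was at least 1 log2 unit above the higher unstimulated array. It rose 4.36-fold with HL7G (2.12 ± 0.32, limma adjusted p = 0.0117). Trim14, another member without a RING finger and an adaptor of MAVS and cGAS, was at 4.57 and 4.50 unstimulated, 6.17 and 5.16 with HL7G, and 5.41, 5.48 and 5.25 with R848, CpG B and poly I:C. Its difference of 1.13 ± 0.32, which was 0.63 without the HL7G array of mouse 1, was not called (limma adjusted p = 0.0664), and with the mouse as a block it was (limma adjusted p = 0.0493).

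**Figure D2:**
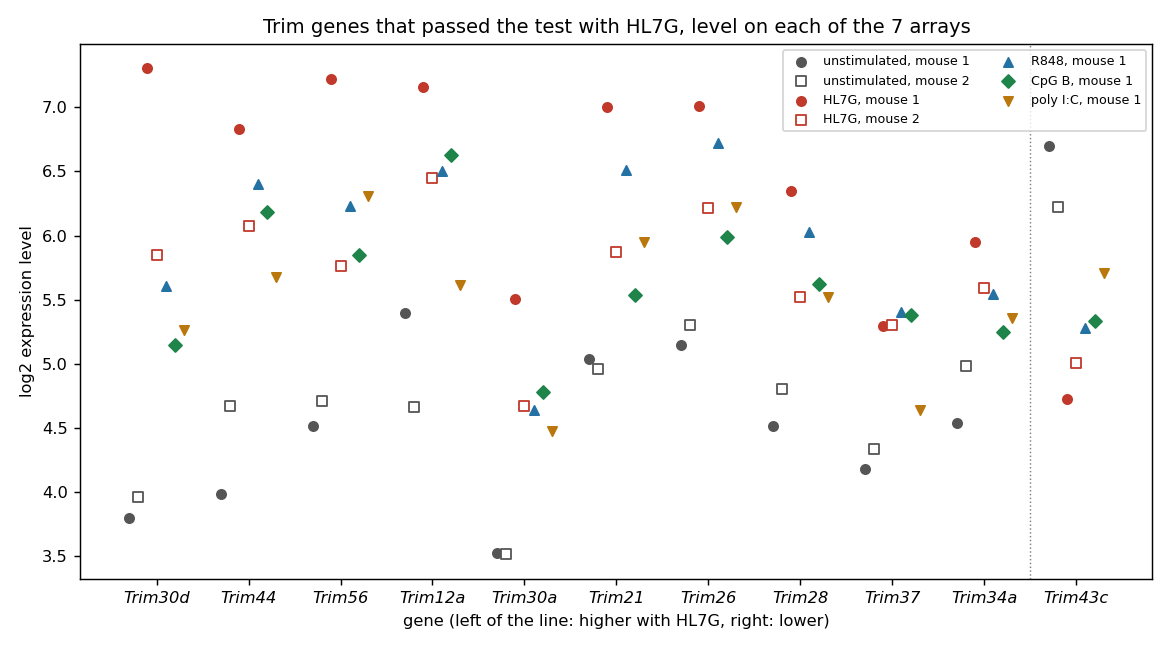
Deposited log2 level on each of the 7 arrays for the 11 Trim genes called with HL7G; colours mark the treatment and marker shapes the mouse. All 5 stimulated arrays lie above both unstimulated ones in the 10 genes that rose, and Trim43c is highest on the unstimulated arrays at 6.70 and 6.22.

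Trim43c was the only Trim gene called lower. The Trim43 family is known from the preimplantation embryo. Trim43c read 6.70 and 6.22 unstimulated, 4.72 and 5.01 with HL7G, 5.28 with R848, 5.34 with CpG B and 5.70 with poly I:C. All stimulated arrays were below both unstimulated arrays, and the difference with HL7G was -1.60 ± 0.23 (limma adjusted p = 0.0112). Trim43a read 4.92 and 4.49 unstimulated and 4.17 and 4.08 with HL7G, a difference of -0.57 that was not called (limma adjusted p = 0.136). Trim43b read 4.32 to 4.65 on 6 arrays and 5.87 on the R848 array.

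The uncalled Trim genes spanned levels of 2.74 to 6.57, and 24 of all 62 were under 5 on every array. Trim80 had the most negative uncalled difference with HL7G at -0.76 ± 0.29 (limma adjusted p = 0.135), with 5.58 and 4.91 unstimulated and 4.22 and 4.74 with HL7G. A probe set listed with both Trim80 and Mir3968, at a mean of 5.37 unstimulated, differed by -0.11. Its difference was -0.68 in mouse 1 and 0.45 in mouse 2. Trim71, an RNA-binding member of the NHL class known from stem cells, read 5.67 to 6.57, with a difference of -0.46 that was -0.89 in mouse 1. It was called lower after quantile normalization only (-1.02, limma adjusted p = 0.0392). Trim11 stayed between 5.79 and 6.14. Trim27, which is described to restrain NOD2 and IKK signalling, was at 4.69 and 4.98 unstimulated and 5.33 and 5.12 with HL7G. No gene was called among the muscle members Trim54, Trim55, Trim63 and Trim72 (median -0.34), the 5 neuronal members (median -0.33), the 4 with NHL repeats (median -0.19) or the 4 with COS, FN3 and SPRY domains (median -0.39). Of the 13 measured members described as interferon-responsive 7 rose (53.8%, beside 8.32% of all genes) and none fell. Trim12a, Trim30a, Trim30d and Trim34a among them are also genes of the chromosome 7 cluster. The interferon-responsive list had a median of 1.13 and 11 members above 0, where 8556 of all 22180 genes were. Its members Trim38, at 3.38 to 3.99, and Trim69, at 3.32 to 3.81, stayed under 4 on every array and were not called.

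Several of the lowest uncalled values came from 1 mouse. Trim29, a member without a RING finger known from airway macrophages and epithelia, was at 5.55 and 5.11 unstimulated and 4.21 and 4.99 with HL7G. Trim72, the muscle membrane repair protein MG53, was at 5.33 and 4.73 unstimulated and 4.03 and 4.81 with HL7G, so that its HL7G array of mouse 2 was not below the unstimulated array of the same animal. In both genes, as in Trim80, the HL7G array of mouse 1 was far below the unstimulated array of that mouse and the arrays of mouse 2 were close together. Trim39, a ligase of the PRY-SPRY class, was at 5.44 and 5.04 unstimulated and 5.52 to 5.66 on the 5 stimulated arrays, a narrow separation that was not called. Trim41 was at 4.61 and 5.24 unstimulated and 5.15 and 5.61 with HL7G, higher by a similar step in each mouse but with overlapping groups. Trim59, a member with a transmembrane domain, read 5.25 on the HL7G array of mouse 1 and 4.45 to 4.90 on the others.

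RefSeq places 14 of the 62 Trim genes on chromosome 7, and 6 of those rose: the 4 cluster genes, Trim21 and Trim28. Over all 62 Trim genes 16.1% rose, and over all genes 8.32%. The other 4 that rose are on chromosomes 2 (Trim44), 5 (Trim56), 11 (Trim37) and 17 (Trim26).

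The response was larger in mouse 1 for 9 of the 10 genes, with Trim12a as the exception. Over the 10 genes the median HL7G minus unstimulated difference was 1.91 in mouse 1 and 1.01 in mouse 2. Trim30d differed by 3.51 in mouse 1 and 1.89 in mouse 2, Trim56 by 2.71 and 1.05, and Trim37 by 1.12 and 0.97. The sign was the same in both mice for 47 of 62 Trim genes (75.8%), beside 73.4% of all genes. Across all genes, which are not independent replicates, r between the unstimulated and HL7G arrays was 0.716 in mouse 1 and 0.886 in mouse 2.

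**Figure D3:**
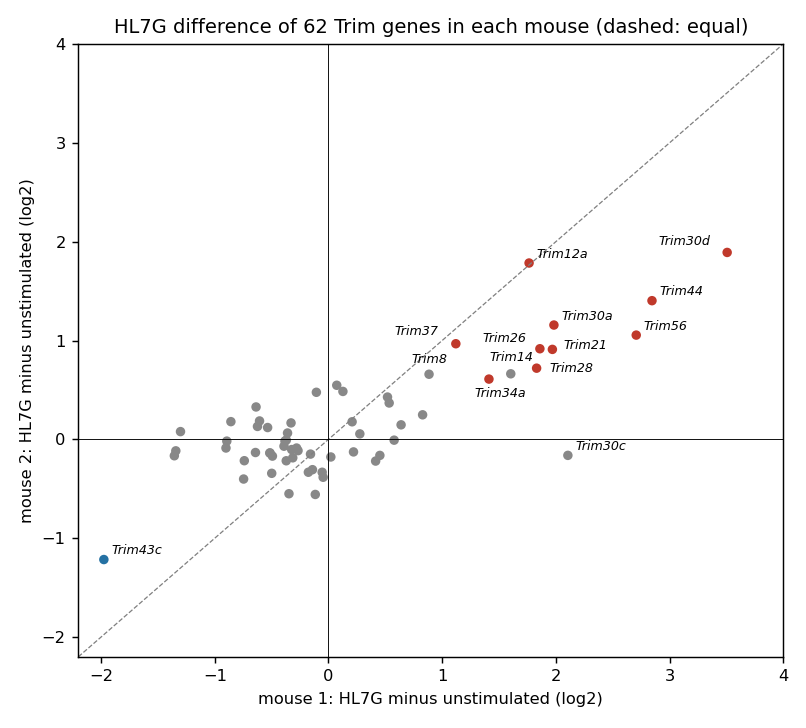
HL7G minus unstimulated in mouse 2 (vertical axis) against mouse 1 (horizontal axis), log2, 1 point per Trim gene, with a diagonal of equal change and the called genes in red (higher) and blue (lower). The 10 genes that rose lie at 1.12 to 3.51 in mouse 1 and 0.61 to 1.89 in mouse 2, and Trim30c lies at 2.11 and -0.16.

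The 3 agonists were compared with the same unstimulated arrays, 1 array against 2, with each lone array assumed to vary like the other groups. In limma 0% of genes were called for R848, CpG B or poly I:C, and 0 of 62 Trim genes, with 18, 11 and 7 Trim genes at an unadjusted p under 0.05. These are 29%, 17.7% and 11.3% of the Trim genes, and over all genes 19%, 10.8% and 7.89% were at that p. Without either HL7G array, which then leaves 1 residual degree of freedom, 14 Trim genes were called for R848, 6 for CpG B and 2 for poly I:C, while 9.16%, 3.38% and 1.52% of all genes were called in the same fits. Sizes are given as values. With R848 10 Trim genes (16.1%) were at least 2-fold higher, beside 6.22% of all genes, and 2 (3.23%) at least 2-fold lower, beside 1.48%. With CpG B the counts were 6 (9.68%) and 1 (1.61%), beside 4.1% and 0.509%. With poly I:C they were 4 (6.45%) and 0, beside 3.15% and 0.153%.

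R848 gave the largest values of the agonists. Trim44 differed by 2.08 ± 0.39, Trim30d by 1.73 ± 0.52 and Trim56 by 1.62 ± 0.52, with limma adjusted p of 0.0805, 0.144 and 0.164. Trim43c lay at -1.18 ± 0.29, Trim80 at -1.16 ± 0.35 and Trim45 at -0.76 ± 0.23, and the single high array of Trim43b gave 1.41 (limma adjusted p = 0.0717). With CpG B, Trim44 was at 1.86 ± 0.39, Trim12a at 1.60 ± 0.39 and Trim30d at 1.26 ± 0.52. At the lower end for CpG B were Trim43c at -1.13 ± 0.29, Trim23 at -0.62 ± 0.24 and Trim29 at -0.60 ± 0.36. Poly I:C had Trim56 first, at 1.70 ± 0.52, then Trim30d at 1.38 ± 0.52 and Trim44 at 1.35 ± 0.39, and its lowest values were -0.76 for Trim43c, -0.57 for Trim29 and -0.39 for Trim16. No adjusted p was below 0.237 for CpG B or 0.523 for poly I:C among the Trim genes.

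For the 10 genes that rose with HL7G, the median difference was 1.50 with HL7G, a value that their choice by the HL7G arrays favours. It was 1.48 with R848, 1.18 with CpG B and 0.95 with poly I:C for these 10 genes. R848 was the highest of the 3 agonist arrays in 7 of them and CpG B in 2, and poly I:C was the lowest in 5. Trim56 was the gene with poly I:C on top, at 6.31 beside 6.23 for R848. All 5 stimulated arrays were above both unstimulated arrays in 14 of 62 Trim genes (22.6%), beside 15.5% of all genes. These were the 10 with Trim8, Trim14, Trim27 and Trim39. A second probe set of Trim27 went the other way, with 5.28 and 4.87 unstimulated and 4.41 to 4.86 on the 5 stimulated arrays. All of these values share the unstimulated arrays, and 1 array per agonist does not show whether the agonists differ from each other.

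**Figure D4:**
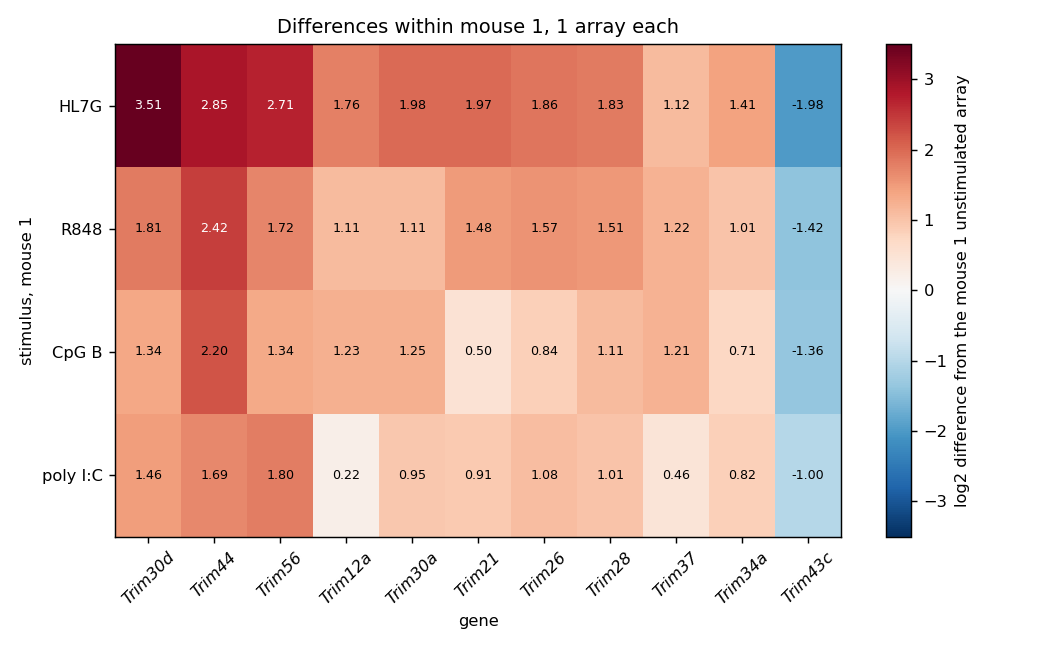
Each stimulus minus unstimulated within mouse 1 (log2) for the 11 Trim genes called with HL7G, printed and coloured in a grid with stimuli as rows, genes as columns and 1 array, with no replicate, behind each cell. HL7G is the furthest from 0 in 10 of the 11 genes, Trim37 being the exception, which their choice by the same HL7G array favours. All 4 stimuli lie below 0 in Trim43c.

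HL7G was also set against the mean of the 3 agonists, a difference that uses no unstimulated array, although its error draws on the spread of the unstimulated pair as well. In limma 0 of 62 Trim genes and 0% of all genes were called, with 5 Trim genes (8.06%) and 9.44% of all genes at an unadjusted p under 0.05. Without the HL7G array of mouse 2, 3 Trim genes and 1.63% of all genes were called. The largest values were 1.24 ± 0.38 for Trim30d (limma adjusted p = 0.418), 0.75 ± 0.61 for Trim30c and 0.56 ± 0.29 for Trim12a. At the other end were Trim43c at -0.58 ± 0.21, Trim58 at -0.46 ± 0.19 and Trim9 at -0.42 ± 0.22. The 10 genes that rose with HL7G had a median of 0.37 here and were all above 0, which their choice by high values on the same HL7G arrays favours. For 9 of them the HL7G array of mouse 1 was above every agonist array of the same mouse, and the HL7G array of mouse 2 was so in 2.

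Relatives of the family and the ubiquitin genes it draws on were called higher about as often as all genes, of which 8.32% were. This rests on 1 call in each list. The median difference was -0.14 for the relatives and 0.60 for the ubiquitin and E2 genes, beside -0.12 over all genes. Above 0 were 3 of 11 relatives and 7 of 10 ubiquitin and E2 genes. Among 11 relatives with TRIM domains under other symbols 1 rose (9.09%): Pml, the organiser of nuclear bodies, was at 4.75 and 4.82 unstimulated, 8.12 and 6.83 with HL7G, and 6.80, 6.15 and 6.58 with R848, CpG B and poly I:C (2.69 ± 0.38, limma adjusted p = 0.0109). Of 10 measured ubiquitin and E2 genes 1 rose (10%): Ube2d3, an E2 enzyme that many RING ligases use, by 1.59 ± 0.24 (limma adjusted p = 0.0122). Ube2n, which builds lysine-63 chains, differed by 0.75 ± 0.20 and was not called (limma adjusted p = 0.0544).

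Of 21 measured sensor and NF-kB pathway genes whose proteins TRIM ligases are described to modify, 9 rose (42.9%) and none fell. Over all genes 8.32% rose and 1.51% fell. The median was 0.68, beside -0.12 over all genes. A level of 5 on at least 1 array was reached by 19 of the 21. In a fit of all genes reaching that level 16.3% were called higher. The RNA sensor Ifih1, which encodes MDA5, rose by 2.91 ± 0.45 (limma adjusted p = 0.0123), Ddx58, which encodes RIG-I, by 2.39 ± 0.44 (limma adjusted p = 0.0191) and the kinase gene Ikbke by 1.84 ± 0.22 (limma adjusted p = 0.00942). On the same arrays 7 of 10 B cell markers (70%) and 4 of 6 abundant transcripts rose and 1 of the latter, Gapdh, fell, and their part in the result was not tested.

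The number of calls hung on single arrays. Between 0 and 18 Trim genes were called with HL7G when 1 array was left out: 0 without the unstimulated array of mouse 1, 2 without that of mouse 2 (Trim44 and Trim43c), 8 without the HL7G array of mouse 1 and 18 without that of mouse 2. The calls over all genes moved in the same fits, to 0.00902%, 3.45%, 7.52% and 18.4% of genes in that order. The direction of all 11 called genes could not turn in these fits, since their HL7G and unstimulated arrays did not overlap.

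**Figure D5:**
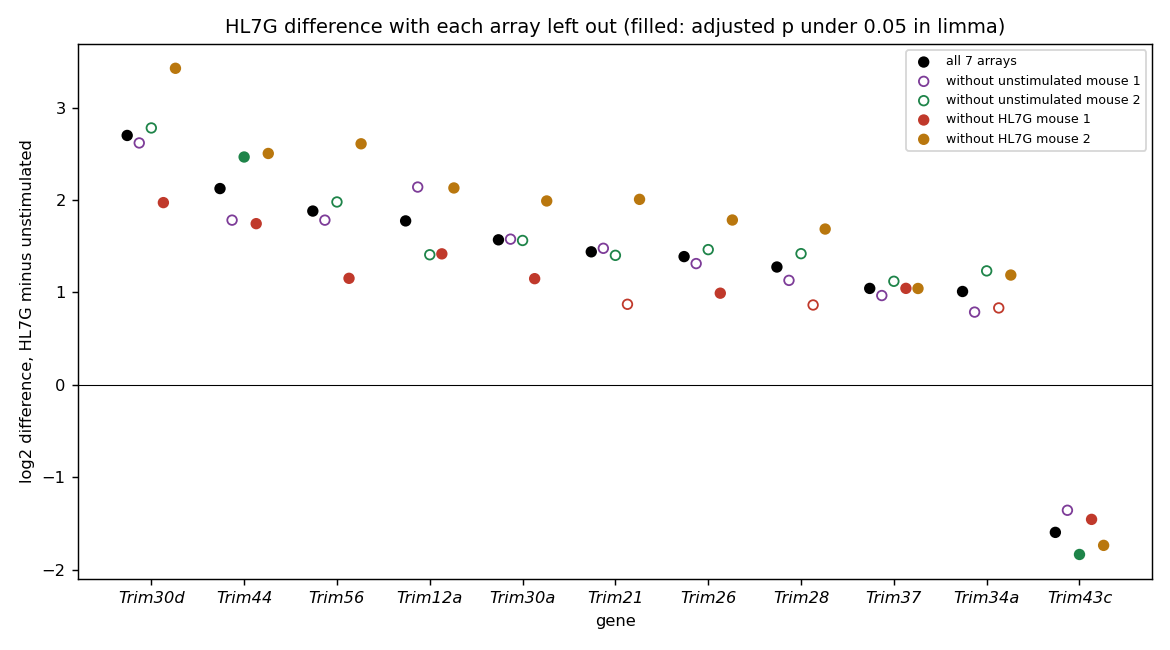
HL7G minus unstimulated (log2) for the 11 called Trim genes with all arrays and with each of the 4 unstimulated and HL7G arrays left out in turn; filled points passed the test in that fit. Trim30d ranges from 1.97 without the HL7G array of mouse 1 to 3.43 without that of mouse 2. No gene could cross 0, since the HL7G and unstimulated arrays of these genes do not overlap.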

How the data were processed

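Total RNA of mouse spleen monocytes was hybridised to 7 Mouse Gene 2.0 ST arrays, per the labels' protocols. The deposited values are the authors' log2 levels of probe sets, made with RMA, Affymetrix Expression Console and Transcriptome Analysis Console per the submitters' processing notes, with no versions given. RMA corrects background, normalizes arrays by quantiles and summarises probes, so a shift of most genes on an array would be damped. Differences between the arrays remained in the deposited values. Quantile normalization over the single-symbol genes moved the genes called lower with HL7G from 336 to 977, and those called higher from 1845 to 1787. No genome build is stated for the array. The table held 41345 probe sets with array medians of 4.40 to 4.54; 23521 had 1 symbol in the platform annotation, 1814 several, and 16010 were not listed.

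All 22180 single-symbol genes, without a filter on level, entered 1 limma 3.58.1 fit in R 4.3.3 with 5 groups and 7 arrays, 2-sided, with Benjamini-Hochberg adjustment over all genes, and were called at an adjusted p under 0.05. Errors are standard errors of that fit (2 residual and 5.48 prior degrees of freedom). The number of arrays limits the precision. Members, gene lists, motifs and tests were chosen with earlier results of these data known. Named were the called members (12 largest rises, 8 largest falls with HL7G), the 3 largest values each way where none was called, up to 3 genes of each other list, and always Trim8, Trim21, Trim24, Trim28, Trim30a, Trim33 and Trim56. Trim6, Trim11, Trim12c, Trim14, Trim27, Trim30b, Trim30c, Trim38, Trim39, Trim41, Trim43a, Trim43b, Trim59, Trim69, Trim71, Trim72 and Ube2n, the other members given by range, and the Actb, B2m and Ptprc values were named after their values were seen.

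Arrays with the same mouse number share an animal, which pairs them; over all genes the between-mouse differences of the unstimulated and HL7G arrays had r = -0.121. A mouse block, filters, other normalizations, the mean of probe sets, a variance trend and leaving out each array were tried. Promoters and chromosomes are RefSeq's (GRCm38.p6), and motifs were searched on both strands. The test was run on simulated data before use. The probe sets of 1 Trim gene are not reported here.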

Additional observations from a re-analysis of the deposited data

Results flagged for a closer look

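A probe set listed with both Trim12c and Trim5 (17494325), and so outside the single-symbol genes tested, was higher with HL7G. It read 3.02 and 3.31 on the unstimulated arrays of mouse 1 and mouse 2 and 4.87 and 3.90 on the HL7G arrays, a difference of 1.22 that was 1.85 in mouse 1 and 0.59 in mouse 2. It read 3.90 with R848, 3.70 with CpG B and 3.70 with poly I:C, all above the unstimulated arrays. The single-symbol probe set of Trim12c differed by 0.14, and another probe set listed with the same 2 genes (17481305) by -0.46. Which of the 2 genes each shared probe set reads was not tested.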

How the results depend on the processing

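All 11 called Trim genes kept their direction in every alternative that tested them, which was largely fixed in advance. Their HL7G and unstimulated arrays did not overlap, so that leaving out 1 array could not turn a sign. The mouse block, the variance trend and the level filters leave each difference as it was. With the mouse as a replicate block 11 were called, 10 higher and 1 lower, with Trim34a lost and Trim14 gained. The count was 8 after cyclic loess (Trim21, Trim26, Trim28 and Trim34a lost, Trim8 gained), 14 after quantile normalization, 13 with a variance trend, 10 with the mean of a gene's probe sets (Trim34a lost) and 11 after median centring or among genes reaching 5. Of all genes in each of these fits, 8.58%, 12.5%, 11.3%, 9.86%, 9.6% and 18.2% were called, in that order, and 8.59% with the block. Where the mean level had to reach 6, 3 Trim genes were left to test and 2 were called. Of all genes in that fit 34.2% were called, and their median difference was 0.86. Cyclic loess moved the median over all genes from -0.12 to -0.02. Leaving out 1 array gave 0 to 18 calls for HL7G, 0 to 14 for R848, 0 to 6 for CpG B, 0 to 2 for poly I:C and 0 to 3 for HL7G against the agonists. Quantile normalization gave 6 calls for R848, 5 of them higher, beside 3.37% of all genes; the cause was not tested. The uncalled difference of Trim30c turned to -0.27 without the HL7G array of mouse 1 and was 2.21 without that of mouse 2. Calls rest on 4 arrays of 2 mice, and the agonists on 1 array each.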

Other observations

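A second probe set of Trim27, dimmer on average over the 7 arrays than the 1 used, gave -0.57 for HL7G minus unstimulated. The probe set used gave 0.39, opposite in sign. Without stimulus the second probe set was the brighter, at a mean of 5.07 beside 4.83, and all 5 stimulated arrays were below both unstimulated ones in it. It was tested only as part of the mean of a gene's probe sets.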
